A study of Anas platyrhynchos with 12 samples.

Results

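Heat shock proteins and DNAJ chaperones were described in breast muscle of F2 ducks (Anas platyrhynchos), a set taken by gene symbol from the deposited expression table. It comprised the small heat shock proteins with CRYAB, the HSP70, HSP110 and HSP90 families, the mitochondrial chaperonins, the DNAJA, DNAJB and DNAJC families, the BAG co-chaperones, the HSPB1-associated protein HSPBAP1 and the myosin chaperone UNC45B. In all, 68 of 16433 gene models belonged to the set, under 64 distinct symbols. RNA of whole breast muscle was sequenced from birds 42 days old, in 6 samples with a high (HB) and 6 with a low (LB) share of breast muscle. All ducks belonged to 1 F2 population under shared husbandry, and the labels name no treatment, sex, batch or litter. The study compared HB with LB to find genes related to growth. Whether each sample is a separate bird is not stated, so every p-value reflects only how these samples vary, which may be partly technical. The libraries are called HB-1 to HB-6 and LB-1 to LB-6 after the column names, and the numbers carry no order and no pairing.

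Heat shock proteins keep other proteins folded. Small heat shock proteins hold unfolding clients, HSP70 binds and releases them with ATP, J-domain (DNAJ) proteins deliver clients and start ATP hydrolysis, and HSP110 and BAG proteins exchange the nucleotide. HSP90 then matures selected clients such as kinases and steroid receptors. In striated muscle, HSPB8 and BAG3 act together in the turnover of damaged sarcomere proteins, and UNC45B folds the myosin head with HSP90. Heat and other proteotoxic stress raise many of these genes through heat shock factors.

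Total counts lay between 24090771 and 42503751 per library. The muscle fibre markers with a row in the table, 4 of 8, summed to 36398 to 71729 FPKM (fragments per kilobase of gene, scaled to library size) in the 12 libraries, and 0 of them were at 0. Library HB-4 stood apart for stress genes. The summed level of 12 immediate early genes, which respond within minutes to stimulation, was 236 to 903 FPKM in 11 libraries and 4311 FPKM in HB-4, and all 12 genes were highest in HB-4. Counts for several classes and the differences of most genes that HB-4 moved are therefore also given without HB-4.

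The chaperone set took between 0.579% and 1.19% of all reads in 11 libraries and 2.79% in HB-4. LB-1 had the next highest share, and LB-5 the lowest. HSPB1, HSPA2, HSPA8 and HSP90AA1 together held 69.9% of the set's reads in HB-4 and 38.0% to 60.8% in the others. Their share was lowest in LB-5 and LB-2, at 38% and 39.6%. Between 63 and 65 of the 68 models had a read in each library. The summed FPKM of the set was 2938 to 14071 in HB, with a median of 4028, and 2692 to 6089 in LB, with a median of 4262. The groups overlapped, and the lowest library of each group, HB-5 and LB-5, differed little in this sum.

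**Figure D1:**
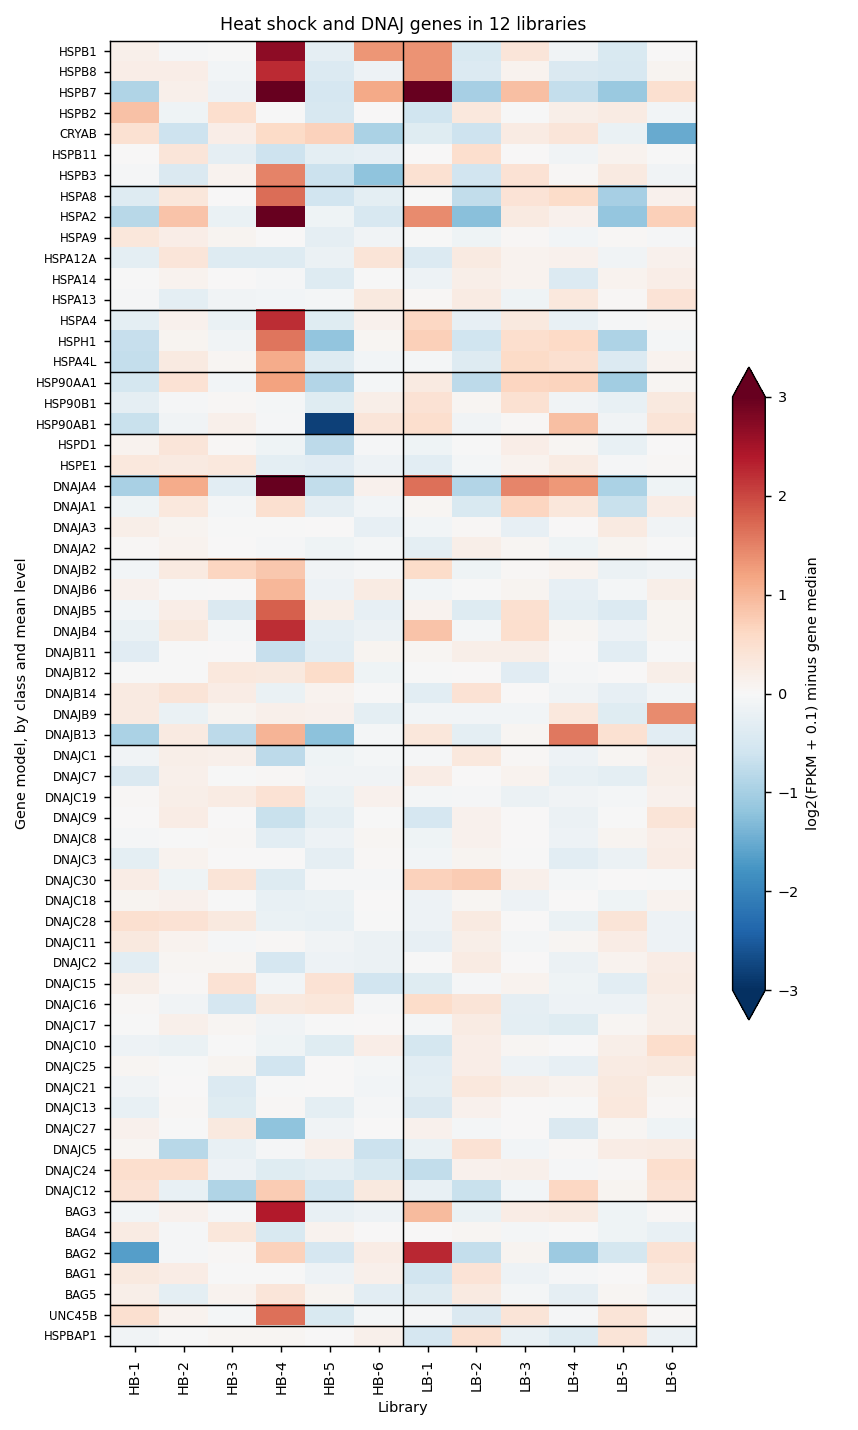
Heat map of the 63 tested chaperone gene models (rows, ordered by class and mean level, with black lines between classes) in 12 libraries (columns, HB left and LB right of the vertical line). Colour is log2(FPKM + 0.1) minus the median of that gene, and 20 models are highest in HB-4, and DNAJC27 is low there.

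Single genes did not separate HB from LB. With the quasi-likelihood test of edgeR, 0 of the 63 tested models had an adjusted p under 0.05 (0% of all 12577 tested genes), 0 rose and 0 fell. An unadjusted p under 0.05 was found for 1 of 63, DNAJC19, where 4.6% of all tested genes had one. DESeq2 called 0 of the set (0.00668% of the genes it tested). In 0 of the 63 did the HB and LB libraries not overlap, against 0.159% of all tested genes. Log2 differences, given as HB minus LB with their SE, were positive for 40 of 63 models (49.9% of all tested genes), with a median of 0.06 against 0.00 over all tested genes. Without HB-4 they were positive for 28 of 63 (48.5% of all tested genes), and the median was -0.02. An unadjusted p under 0.05 was then found for 1 of 63, DNAJB14 (4.24% of all tested genes). Without HB-4 and LB-1, 33 of 63 were positive (50.2% of all tested genes). The smallest adjusted p of a member in edgeR was 0.977, and 0.995 without HB-4. The 5 untested models did not pass the low-count filter. Both models of DNAJB8 had 0 reads, and single models of DNAJB13 and DNAJC5 had 82 and 28 reads. A model of DNAJB5 had 606 reads, all in HB-3. No model carried the symbol DNAJB1 or HSPA5, so neither could be described.

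Of the set, 17 models were at least 2 times higher in HB-4 than the median of the other 11 libraries (8.13% of all tested genes), and 1, DNAJC27, was at most 0.5 times that median (10.1% of all tested genes). Those 17 were HSPB1, HSPB3, HSPB7, HSPB8, HSPA2, HSPA8, HSPA4, HSPA4L, HSPH1, HSP90AA1, DNAJA4, DNAJB4, DNAJB5, DNAJB6, DNAJB13, BAG3 and UNC45B. HB-4 was the highest library for 20 of 63 models (16.8% of all tested genes). In LB-1, 6 models were at least 2 times the median of the other 5 LB libraries (3.46% of all tested genes), namely HSPB1, HSPB7, HSPB8, HSPA2, DNAJA4 and BAG2, of which 5 were also among the 17 (1.29% of all tested genes). The libraries and thresholds of this paragraph were chosen after the values had been seen, so the counts describe these libraries.

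**Figure D2:**
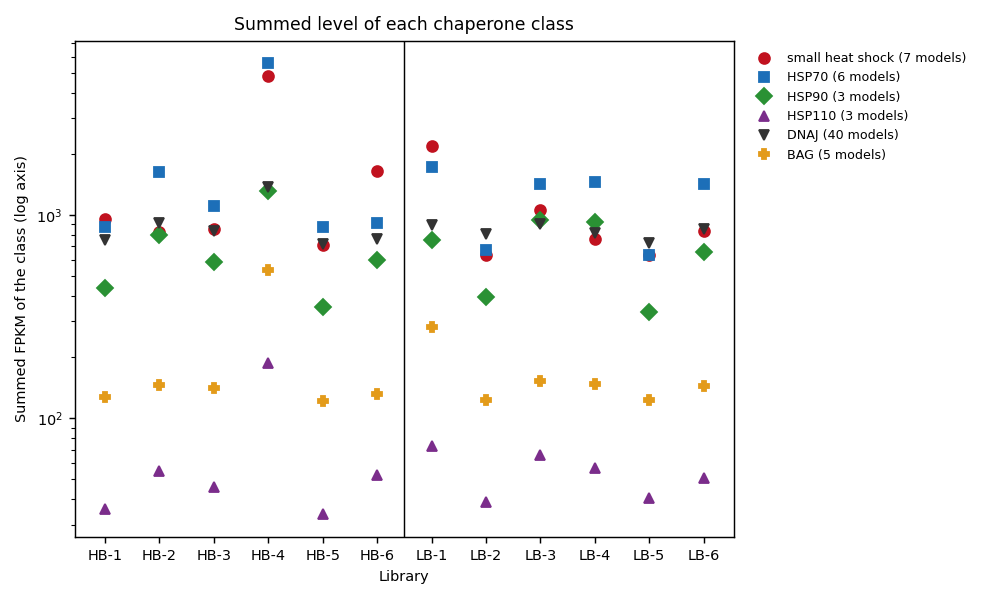
Summed FPKM per library (log axis) for 6 chaperone classes, 1 point per class and library, with HB left and LB right of the line. HB-4 is highest for all 6 classes shown, with 4816 FPKM for the small heat shock proteins and 5572 FPKM for HSP70. LB-1 is second for the small heat shock, HSP70, HSP110 and BAG sums. The DNAJC family, here part of DNAJ, summed in HB-4 to 0.892 times the median of the other libraries. The mitochondrial chaperonins, not shown, summed there to 0.868 times.

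Among small heat shock proteins, HSPB1, HSPB7 and HSPB8 were high in the same pair of libraries, 1 of each group, and CRYAB and HSPB2 were not high in both. The 7 models summed to 708 to 4816 FPKM across HB (median 905) and 632 to 2189 FPKM across LB (median 799). None was called in edgeR, 6 of 7 had positive log2 differences, 3 of 7 did without HB-4, and 5 of 7 without HB-4 and LB-1. The median of these differences was 0.45 with all libraries, -0.13 without HB-4 and 0.24 without both. HSPB1 binds actin filaments and unfolding proteins. It had the highest mean FPKM of the set over the 12 libraries, but its median was below that of HSPA8 in both groups. The lowest, median and highest levels of HSPB1 were 437, 552 and 3338 FPKM across HB and 379, 506 and 1328 FPKM across LB. The high values were HB-4, LB-1 and HB-6 with 1307 FPKM, and the other 9 libraries overlapped. The log2 difference of HSPB1 was 0.83 ± 0.55 (adjusted p 0.977 in edgeR) and 0.07 ± 0.39 without HB-4. It was 1.27 without LB-1 and 0.51 ± 0.29 without both.

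HSPB7, a small heat shock protein of heart and skeletal muscle that handles the actin crosslinker filamin C, had the widest range of the tested models, 29.4 times from lowest to highest library. It held 24.9, 46.9 and 628.5 FPKM as lowest, median and highest level in HB and 21.4, 46.6 and 385 FPKM across LB. The 2 medians lay close together, and the highest values were HB-4 and LB-1, 14.9 times the median of the other 11 libraries and 13.6 times that of the other 5 LB libraries. Its log2 difference of 0.51 ± 0.96 (adjusted p 0.989 in edgeR) turned to -1.07 ± 0.76 without HB-4, to 1.81 without LB-1 and to 0.24 without both. HSPB8, the partner of BAG3, held 113, 155 and 699 FPKM across HB and 107, 135 and 382 FPKM across LB, again with HB-4 and LB-1 highest. Its log2 difference went from 0.48 ± 0.51 to -0.25 ± 0.34 without HB-4, 0.96 without LB-1 and 0.24 ± 0.15 without both.

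CRYAB, the alpha B crystallin that protects desmin and titin, held 22.6, 55.9 and 71.7 FPKM across HB and 15.4, 36.2 and 56.5 FPKM across LB. HB-5 was highest, HB-4 followed with 65.3 FPKM, 1.71 times the median of the other 11 libraries, and LB-6 was lowest. The log2 difference of CRYAB was 0.45 ± 0.36 (adjusted p 0.977 in edgeR) and 0.36 ± 0.37 without HB-4. HSPB2, which lies next to CRYAB in the reference gene table, was highest in HB-1 with 100.1 FPKM and lowest in LB-1 with 35.9 FPKM. The ratio of HSPB2 to CRYAB varied from 0.550 in HB-5 to 3.37 in LB-6, so these neighbours did not keep a fixed ratio. HSPB3, a muscle protein that binds HSPB2, held 23.4 FPKM in HB-4, against 3.51 to 11.4 in the other libraries. The log2 difference of HSPB3 was 0.06, and -0.48 without HB-4. The model with the symbol HSPB11, which the gene table names IFT25 after its role in ciliary transport, held 7.38 to 14.7 FPKM across HB and 10.6 to 16.2 FPKM across LB.

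In the HSP70 family, HSPA2 and HSPA8 varied widely between libraries and the organelle and distant forms little. The 6 models summed to 869 to 5572 FPKM across HB (median 1010.4) and 635 to 1730 FPKM across LB (median 1422). None was called in edgeR, 3 of 6 had positive log2 differences, and 2 of 6 did without HB-4. HSPA2, for which the gene table lists HSP70 as another name, held 203, 327 and 3470.3 FPKM as lowest, median and highest level in HB. In LB it held 153, 419 and 965 FPKM. HB-4 was 10.4 times the median of the other 11 libraries, LB-1 and HB-2 came next, and LB-2 and LB-5 were lowest. The log2 difference was the largest of the set, 0.98 ± 0.74 (adjusted p 0.977 in edgeR), and turned to -0.36 ± 0.48 without HB-4 and 0.09 ± 0.41 without HB-4 and LB-1.

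HSPA8, the constitutive cognate HSP70, held 408, 561 and 1942 FPKM across HB and 309, 636 and 898 FPKM across LB. HB-4 was again highest, and the other 5 HB libraries lay within the LB range. Its log2 difference was 0.40 ± 0.41 (adjusted p 0.977 in edgeR), and -0.12 ± 0.28 without HB-4. HSPA9, the HSP70 of mitochondria, held 119.9 to 182 FPKM across HB and 132 to 149 FPKM across LB, with a log2 difference of 0.12 ± 0.11, and 0.13 without HB-4. HSPA12A, HSPA13 and HSPA14 had log2 differences of -0.04, -0.16 and -0.02, and of 0.02, -0.16 and -0.03 without HB-4. HSPA2 and HSPA8 encode similar proteins, and reads of similar stretches may be split between them.

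The HSP110 proteins, large HSP70 relatives that exchange nucleotides on HSP70, were all highest in HB-4. Of 3 models, 3 had positive log2 differences and 0 did without HB-4, and none was called in edgeR. HSPA4 held 20.8, 26.1 and 124.5 FPKM across HB and 22.5, 26.7 and 40.8 FPKM across LB. The medians were close, and HB-4 alone lay above the LB range. HSPH1, a stress-inducible form, held 6.26, 14.3 and 44.0 FPKM across HB and 7.61, 17.1 and 23.8 FPKM across LB. Log2 differences were 0.57 ± 0.44 for HSPA4, 0.10 ± 0.45 for HSPH1 and 0.10 ± 0.30 for HSPA4L. Without HB-4 they were -0.20, -0.47 and -0.22.

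HSP90AA1, the inducible cytosolic HSP90, held 288, 503 and 1227 FPKM as lowest, median and highest level in HB and 258, 596 and 847 FPKM across LB. After HB-4 followed LB-4, LB-3 and HB-2, and LB-5, HB-5 and LB-2 were lowest. The groups thus overlapped over nearly the whole LB range, with a log2 difference of 0.09 ± 0.39 (adjusted p 0.993 in edgeR) and -0.26 ± 0.34 without HB-4. HSP90B1, the HSP90 of the endoplasmic reticulum, held 65.7, 80.8 and 94.4 FPKM across HB and 72.2, 95.7 and 116 FPKM across LB. HB-4 was not high for HSP90B1, at 80.3 FPKM, and the log2 difference of -0.23 ± 0.15 (adjusted p 0.977 in edgeR) was -0.23 without it. The model of HSP90AB1, the cytosolic beta form, is described in the deposited table as partial and of low quality. It held 0.144 to 2.05 FPKM across HB and 1.47 to 3.04 FPKM across LB, so its level and its log2 difference of -0.58 ± 0.44 (-0.64 without HB-4) are uncertain.

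The mitochondrial chaperonins HSPD1 and HSPE1, which form the folding chamber of the matrix and its lid, were not high in HB-4. HSPD1 held 57.7, 99.0 and 127 FPKM across HB and 85.4, 99.3 and 114 FPKM across LB, with the lowest value in HB-5. HSPE1 held 35.4, 47.1 and 55.8 FPKM across HB and 36.1, 44.8 and 53.3 FPKM across LB. The ratio of HSPD1 to HSPE1 stayed between 1.63 and 2.5 in the 12 libraries. Log2 differences were -0.00 ± 0.14 for HSPD1 and 0.07 ± 0.13 for HSPE1 (adjusted p 1.00 and 0.989 in edgeR), and 0.01 and 0.13 without HB-4.

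**Figure D3:**
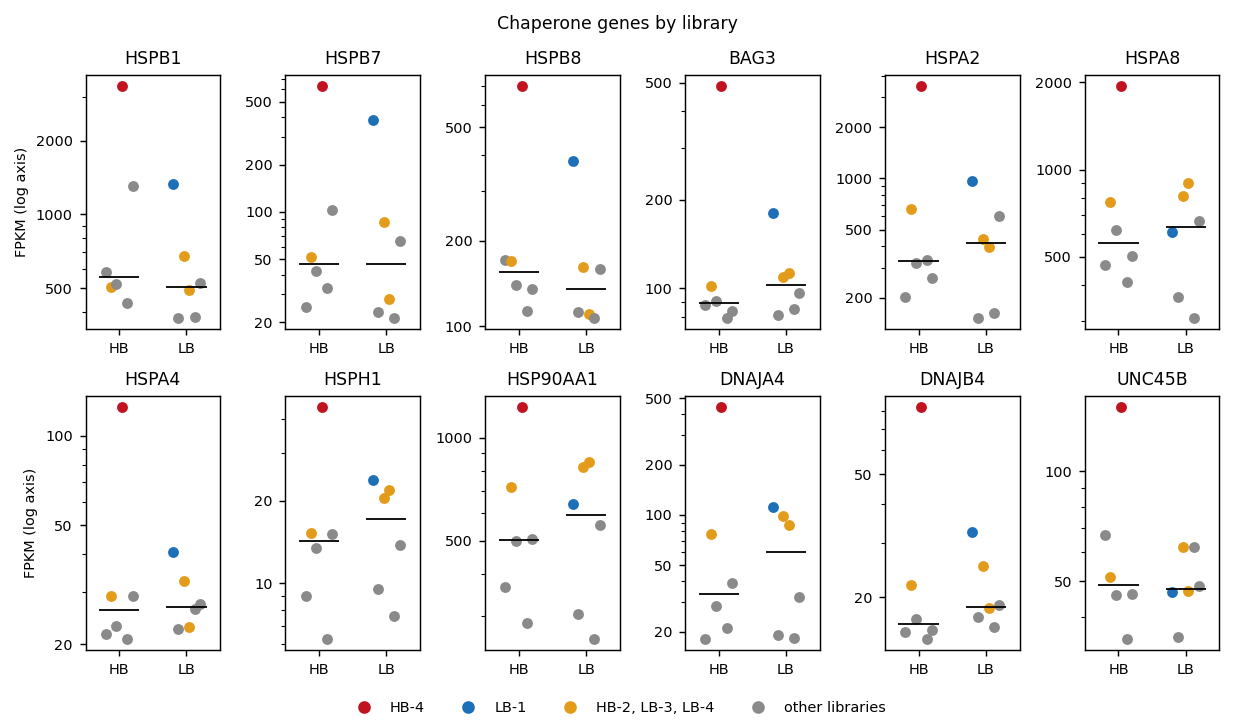
FPKM (log axis, a scale of its own per gene) of 12 chaperone genes in HB and LB, 1 point per library, with the group median as a bar. HB-4 (red) is highest in every panel, which follows from the choice of genes. All 12 are among the 20 of 63 tested models that are highest in HB-4. LB-1 (blue) is second for HSPB1, HSPB7, HSPB8, BAG3, HSPA2, HSPA4, HSPH1, DNAJA4 and DNAJB4. HB-2, LB-3 and LB-4 (orange) follow HB-4 for HSPA8 and HSP90AA1.

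Of the 40 DNAJ models, 35 were tested. The widest ranges from lowest to highest library were in DNAJA4, DNAJB13, DNAJB4 and DNAJB5, at 24.3, 8.8, 5.6 and 4.7 times. DNAJC12 followed at 3.8 times, while DNAJA2 and DNAJA3 varied by only 1.4 times. Of the tested models, 20 of 35 had positive log2 differences, 17 of 35 did without HB-4, and none was called in edgeR. DNAJA4 held 18.1, 33.7 and 441 FPKM as lowest, median and highest level in HB and 18.4, 59.6 and 111 FPKM across LB. HB-4 was 13.6 times the median of the others, and LB-1, LB-3, LB-4 and HB-2 came next. The log2 difference of DNAJA4 was 0.78 ± 0.83 (adjusted p 0.977 in edgeR) and -0.77 ± 0.56 without HB-4. DNAJA1, a cytosolic partner of HSPA8, held 55.3 to 93.7 FPKM across HB and 41.7 to 104 FPKM across LB. It was highest in LB-3, not HB-4, and its log2 difference was 0.01 ± 0.22. DNAJA2, of the same type, held 37.5 to 44.5 FPKM across HB and 34.0 to 46.4 FPKM across LB. DNAJA3, a mitochondrial J protein, held 38.5 to 52.0 FPKM across HB and 38.8 to 55.0 FPKM across LB.

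In the DNAJB family, DNAJB2, DNAJB4, DNAJB5 and DNAJB6 were highest in HB-4. DNAJB4, a cytosolic J protein, held 14.7, 16.3 and 82.5 FPKM across HB and 16.1, 18.6 and 32.5 FPKM across LB. The more highly expressed of 2 DNAJB5 models held 20.0, 28.2 and 94.2 FPKM across HB and 20.3, 25.3 and 38.0 FPKM across LB. DNAJB6 suppresses protein aggregation and its human gene is mutated in a limb-girdle muscular dystrophy. It held 28.7, 33.4 and 63.9 FPKM across HB and 26.8, 31.1 and 36.0 FPKM across LB. Log2 differences of DNAJB4, DNAJB5 and DNAJB6 were 0.42 ± 0.44, 0.55 ± 0.36 and 0.33 ± 0.18 (adjusted p 0.977 in edgeR). Without HB-4 they were -0.32, 0.01 and 0.11, and without HB-4 and LB-1 they were -0.11, 0.08 and 0.13. DNAJB2, a J protein that binds ubiquitinated clients, was highest in HB-4, HB-3 and LB-1, with 98.6, 88.2 and 83.0 FPKM. DNAJB12 and DNAJB14, J proteins of the endoplasmic reticulum membrane, had log2 differences of 0.27 ± 0.14 and 0.22 ± 0.13. Their values without HB-4 were 0.24 and 0.28, with unadjusted p of 0.129 and 0.0411 in edgeR.

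The DNAJC family, whose roles are varied, had similar sums in all libraries. Its 23 models summed to 368 to 452 FPKM across HB and 376 to 469 FPKM across LB, with the lowest sum in HB-4. HB-4 was the lowest library for 8 of 22 tested models (21.7% of all tested genes). The 22 tested log2 differences of the family ran from -0.29 to 0.24, and 10 were positive. Without HB-4, 10 were positive again, but DNAJC12 and DNAJC3 had turned negative and DNAJC25 and DNAJC9 positive. DNAJC19, a subunit of the import motor of the mitochondrial inner membrane, had the smallest p of the set. It held 41.1, 52.4 and 63.9 FPKM across HB and 41.9, 45.4 and 51.4 FPKM across LB. HB-4 was highest and HB-5 lowest, both in 1 group, and the log2 difference was 0.24 ± 0.10 (unadjusted p 0.0361, adjusted p 0.977 in edgeR). Without HB-4 the log2 difference of DNAJC19 was 0.16 ± 0.08 (unadjusted p 0.0743 in edgeR). DNAJC2, which works with HSPA14 at the ribosome, held 10.1 to 15.1 FPKM across HB and 12.8 to 17.2 FPKM across LB, a log2 difference of -0.19 ± 0.10, and -0.13 without HB-4. DNAJC1, a membrane protein of the endoplasmic reticulum, was lowest in HB-4 with 39.7 FPKM against 61.7 to 84.3 FPKM elsewhere. DNAJC7, which binds both HSP70 and HSP90, held 46.7 to 70.1 FPKM across HB and 51.7 to 73.7 FPKM across LB.

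Of the BAG proteins, BAG3 was highest in HB-4 and BAG2 in LB-1. BAG3, which brings HSPB8 and HSP70 together for selective autophagy, held 79.5, 89.0 and 487 FPKM across HB and 81.1, 103 and 180.0 FPKM across LB. HB-4 and LB-1 were highest, and the other 10 libraries lay between 79.5 and 112 FPKM. Its log2 difference was 0.52 ± 0.48 (adjusted p 0.977 in edgeR) and -0.31 ± 0.22 without HB-4. BAG2, an inhibitor of the ubiquitin ligase CHIP, held 73.6 FPKM in LB-1 and 4.84 to 24.9 FPKM elsewhere. Its log2 difference of -0.65 ± 0.58 became 0.30 without LB-1. BAG4 held 16.2 to 28.2 FPKM across HB, with HB-4 lowest, and 19.1 to 23.2 FPKM across LB. BAG1 and BAG5 had log2 differences of 0.11 ± 0.13 and 0.17 ± 0.15, and of 0.13 and 0.09 without HB-4. UNC45B held 34.8, 48.7 and 149.7 FPKM across HB and 35.2, 47.7 and 62.1 FPKM across LB. HB-4 was highest, HB-1 followed with 66.9 FPKM, and the log2 difference went from 0.43 ± 0.32 to -0.01 ± 0.18 without HB-4. HSPBAP1 held 1.81 to 2.18 FPKM across HB and 1.36 to 2.76 FPKM across LB.

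**Figure D4:**
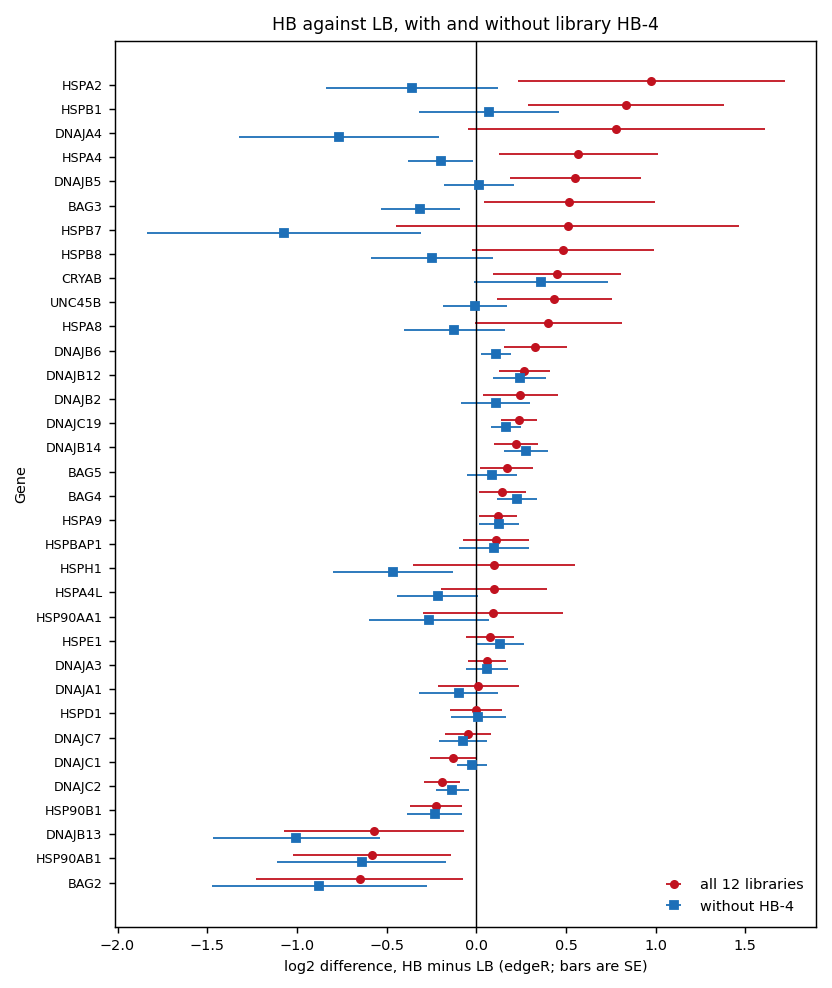
Log2 differences (HB minus LB, x axis) of 34 chaperone genes from edgeR with all 12 libraries (red circles) and without HB-4 (blue squares), with bars of 1 SE. HSPA2 moves from 0.98 to -0.36 and HSPB7 from 0.51 to -1.07, while HSP90B1, HSPA9 and DNAJC19 keep their sign.

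Beside HB-4 and LB-1, a further 3 libraries stood out together. Among the other 10 libraries, HB-2, LB-3 and LB-4 were the 3 highest for 7 of 63 models (0.676% of all tested genes), namely HSP90AA1, HSPA8, HSPH1, HSPA4L, DNAJA1, DNAJA4 and BAG3. HB-5, LB-2 and LB-5 were the 3 lowest of the 10 for HSP90AA1, HSPA8, DNAJA1, DNAJB2 and HSPB1, 5 of 63 models (0.572% of all tested genes). Both sets mix HB and LB, and both were picked after the values had been seen. HSP90AA1 in HB-2, LB-3 and LB-4 was 717, 823 and 847 FPKM, and HSPA8 was 775, 812 and 898 FPKM. The immediate early genes summed to 672, 647 and 571 FPKM in HB-2, LB-3 and LB-4 and to 413, 287 and 903 FPKM in HB-5, LB-2 and LB-5. Of the other 4 libraries, LB-6 had 645 FPKM and HB-1, HB-3 and HB-6 had 236 to 324 FPKM. LB-1, outside these 10, had an immediate early sum of 601 FPKM. The part of these genes in the pattern was not tested.

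Partners of the chaperones outside the set were taken from lists by role. Of 5 heat shock factor symbols, 3 had a row, and HSF3 was not among them. None of the 3 was called in edgeR and 2 had positive log2 differences. HSF1 held 18.7 ± 1.75 FPKM across HB and 19.1 ± 1.47 FPKM across LB (SD, n = 6) and 17.4 FPKM in HB-4. HSF2 had 7.10 FPKM in HB-4, against 4.57 to 9.78 in the other libraries. HSF4, best known from the lens, stayed at or under 0.57 FPKM, and the highest value was HB-4. HSF1 and HSF2 mRNA in HB-4 thus lay within the range of the other libraries. Of 22 tested HSP90 co-chaperone models none was called in edgeR, 12 had positive log2 differences and the median was 0.05 (13 and 0.04 without HB-4). CHORDC1, a zinc-binding HSP90 partner, held 59.6 ± 6.54 FPKM across HB and 51.0 ± 5.49 FPKM across LB in 1 of its models (log2 difference 0.26 ± 0.11, adjusted p 0.977 in edgeR, and 0.23 without HB-4). Its other model held 13.6 FPKM in HB-4, 2.09 times the median of the others, and had a log2 difference of -0.00 ± 0.29, and -0.27 without HB-4. FKBP5 of the same list ranged from 4.19 to 61.9 FPKM. It was highest in HB-6, LB-1 and LB-4, with 61.9, 55.1 and 34.7 FPKM, and held 14.1 FPKM in HB-4. None was called of 12 HSP70 co-chaperones (7 positive, median 0.03, and 9 positive without HB-4), 10 models of the TRiC chaperonin list (5 positive, median 0.01, and 7 positive without HB-4) or 7 chaperones of the endoplasmic reticulum (3 positive, median -0.02, and 3 positive without HB-4). In these last 3 lists 0 members reached 2 times the median of the other libraries in HB-4. GRPEL2 of the HSP70 co-chaperones and PFDN4 of the TRiC list were low there, at 0.434 and 0.455 times that median. Of 6 tested models of the unfolded protein response none was called, 5 had positive log2 differences and the median was 0.06, and 3 did without HB-4, with a median of 0.00. HERPUD1, an induced protein of endoplasmic reticulum associated degradation, held 19.5 FPKM in HB-4, against 8.997 to 13.5 in the other libraries. Its log2 difference went from 0.12 ± 0.19 to -0.09 without HB-4. ATF4, its translation-linked transcription factor, held 392 FPKM in HB-4, against 248 to 413 in the other libraries. Of 6 genes of chaperone-assisted autophagy none was called, 3 had positive log2 differences and the median was 0.02, and 2 did without HB-4. The autophagy receptor SQSTM1 held 309 FPKM in HB-4, against 58.3 to 181 in the other libraries, with a log2 difference of 0.72 ± 0.32 (adjusted p 0.977 in edgeR) that went to 0.35 without HB-4. In this list FLNC, the filamin C of muscle, and SYNPO2 were highest in LB-1, with 417 and 57.3 FPKM. HB-4 was second for both, with 251 and 53.7 FPKM. The other genes of the list were not highest in LB-1.

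Marker sums of other cell types were set beside HB-4. The fibre markers summed there to 0.964 times the median of the other 11 libraries, and 3 erythrocyte markers to 0.809 times. Lists of 9 macrophage and 8 endothelial symbols summed to 0.783 and 0.532 times, 7 fibroblast symbols to 1.48 times, 5 adipocyte symbols to 1.65 times and 3 smooth muscle symbols to 1.34 times. The fibroblast sum was highest in LB-6, at 1498.5 FPKM against 1208 FPKM in HB-4. HB-6 came close to HB-4 for adipocyte markers (605 against 640 FPKM) and smooth muscle markers (279 against 304 FPKM). No marker with a row was at 0 in all libraries. Erythrocyte markers summed to 2585 to 7265 FPKM across HB and 3495 to 5615 FPKM across LB, and endothelial markers to 344 to 695 FPKM across HB and 612 to 817 FPKM across LB. In whole muscle, fewer cells of a type and less RNA per cell cannot be told apart, and the part of immediate early genes or cell markers in the chaperone values was not tested.

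In the authors' deposited table, 7 members with reads carried a p-value of exactly 1: HSPA2, HSPA4, HSPB7, HSPB8, BAG3, DNAJB4 and the DNAJB5 model with reads in 1 library. DESeq2 with default settings, run on the same counts, gave no p-value for the same 7, as it does where a single count is far from the others of its group. Over the series it left 228 genes with reads without a p-value (1.5%), and all 228 carry 1 in the authors' deposited table. Of the genes tested in edgeR, DESeq2 left 0.755% without a p-value, and of the 63 tested members 6.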

How the data were processed

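The authors deposited raw read counts for each gene model in each library. Per the file headers, the table also holds FPKM averaged by group, the log2 fold change of those averages, and raw and adjusted p-values. Tools named in the submitters' processing notes are HISAT2, fastp 0.18.0, DESeq2 and StringTie 1.3.1. For genome build, annotation and read counting, nothing is given in the sources used here. Of the table, 12 further columns with values per library were not used. FPKM per library was derived here by scaling each count to its library total and to a gene length, which the deposited means imply. Lengths implied by either mean differed by at most 0.465% over 10188 genes. Members were rows whose upper-cased symbol fits the family names, and 64 of 68 matched the RefSeq gene table of assembly GCF_047663525.1 by gene number. It may differ from the authors' assembly, and coordinates and sequences are left out.

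Counts were tested with edgeR 4.0.16 (R 4.3.3, TMM, filterByExpr, quasi-likelihood), with Benjamini-Hochberg adjustment over 12577 genes at 0.05. The SE is the absolute log2 difference divided by the square root of F. The procedure was also run on simulated counts, drawn independently for each gene and library. They held no library in which many genes moved together, so that run does not bear on HB-4 or LB-1. Alternatives were DESeq2 1.42.0, limma 3.58.1 on log2(FPKM + 1) and log2(FPKM + 0.1), other scalings, no filter, and each library left out. Leaving out HB-4 and LB-1 together, and DESeq2 without HB-4, were chosen after seeing the data. Named genes were, per class, the 3 with the highest mean FPKM and the smallest p, and over the set the 8 with the widest range at a mean of at least 1 FPKM and the 5 smallest p, with a fixed list of symbols. DNAJB4, HSPB2, HSPB3, HSPB11, DNAJA2, other members outside this rule, HERPUD1, SYNPO2, FKBP5, GRPEL2 and PFDN4 were named after their values were seen. Members and lists were chosen with earlier results of these data known.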

Additional observations from a re-analysis of the deposited data

Results flagged for a closer look

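In groups of 6 libraries, a value was marked where its gap to the next library exceeded Dixon's 95% critical share of the group's range (which marks about 1 group in 20 by chance). Of 68 groups of named members, 19 held such a value, 12 of them HB-4 and 6 LB-1. These genes were partly chosen for a wide range over the libraries, so this count is a description. Over all tested members, 26 of 126 groups (20.6%) held such a value, and over all tested genes 10.7% of groups did. HB-4 was marked within HB for BAG3 (487 FPKM), DNAJA4 (441 FPKM), DNAJB5 (94.2 FPKM), DNAJB6 (63.9 FPKM), HSPA2 (3470.3 FPKM) and HSPA4 (124.5 FPKM). It was also marked for HSPA8 (1942 FPKM), HSPB1 (3338 FPKM), HSPB7 (628.5 FPKM), HSPB8 (699 FPKM), HSPH1 (44.0 FPKM) and UNC45B (149.7 FPKM). LB-1 was marked within LB for BAG2 (73.6 FPKM), BAG3 (180.0 FPKM), DNAJB2 (83.0 FPKM), HSPB1 (1328 FPKM), HSPB7 (385 FPKM) and HSPB8 (382 FPKM). LB-4 was marked for DNAJB13, with 2.85 FPKM against 0.686 to 1.25 FPKM in the other LB libraries. Members named outside the selection rule were not listed here, though HB-4 stood apart within HB for some. DNAJB4 held 82.5 FPKM in HB-4, against 14.7 to 22.0 in the other HB libraries. HSPB3 held 23.4 against 3.51 to 8.87 FPKM, and DNAJC27 1.93 against 4.27 to 5.63 FPKM.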

How the results depend on the processing

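In every setting run, 0 members were called, and in the edgeR settings 0 had groups that did not overlap. The number of members with positive log2 differences was 33 in both limma settings and without HB-4 and LB-1, 39 to 41 with other scalings, DESeq2 or no filter, and 28 to 42 when single libraries were left out. The median log2 difference ranged from -0.024 without HB-4 to 0.098 without HB-6 among single omissions, and was -0.024 in DESeq2 without HB-4. Of 34 named members, 13 changed sign without HB-4. DESeq2 without HB-4 gave BAG3 -0.32, DNAJA1 -0.10, DNAJA4 -0.77, HSP90AA1 -0.26, HSPA2 -0.36, HSPA4 -0.20, HSPA4L -0.22, HSPA8 -0.12, HSPB7 -1.08, HSPB8 -0.25, HSPD1 0.011, HSPH1 -0.47 and UNC45B -0.008. Without HB-4 and LB-1, edgeR gave BAG2 0.083, BAG3 -0.063, DNAJA1 -0.068, DNAJA4 -0.46, DNAJC7 0.017, HSP90AA1 -0.19, HSPA4 -0.020, HSPA4L -0.22, HSPA8 -0.09, HSPD1 0.021 and HSPH1 -0.28. Single omissions gave ranges of -0.88 to 0.30 for BAG2, -0.31 to 0.77 for BAG3, -0.11 to 0.15 for DNAJA1, -0.77 to 1.09 for DNAJA4 and -0.11 to 0.041 for DNAJC7. They were -0.26 to 0.26 for HSP90AA1, -0.36 to 1.42 for HSPA2, -0.20 to 0.74 for HSPA4, -0.22 to 0.23 for HSPA4L and -0.12 to 0.57 for HSPA8. For HSPB1 the range was 0.07 to 1.27, lowest without HB-4 and highest without LB-1. Ranges were -1.07 to 1.81 for HSPB7, -0.25 to 0.96 for HSPB8, -0.085 to 0.097 for HSPD1, -0.47 to 0.29 for HSPH1 and -0.007 to 0.56 for UNC45B. DNAJA1 had -0.002 with upper quartile scaling. HSPD1 had 0.005 in DESeq2, 0.005 with RLE scaling and 0.004 with no filter. HSPA4L and HSPH1 had -0.010 and -0.079 in limma with a pseudocount of 0.1, and -0.004 and -0.069 with 1. The cause of the sign changes was not tested. With 6 libraries per group and a spread this wide, the differences could not be given a direction, whether near 0 or not.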

Other observations

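The second model of DNAJB5 held 606 reads in HB-3 and 0 reads in each of the other 11 libraries. HB-3 held 43 gene models with at least 100 reads of which at least 90% came from that library, against 0 to 6 in each other library. Of these 43 models, 15 lay on the W chromosome in the reference gene table and the other 28, this DNAJB5 model among them, were not matched to it. The more highly expressed DNAJB5 model lies on the Z chromosome in that table, as do DNAJA1, DNAJC21, DNAJC25 and HSPB3. HB-3 was the lowest library for that DNAJB5 model, with 20.0 FPKM, close to LB-5 with 20.3 FPKM. It was also lowest for DNAJC21, but not for DNAJA1, DNAJC25 or HSPB3.

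In the deposited annotation, 16 of the 68 members carried the pathway of protein processing in the endoplasmic reticulum, out of 106 models in all. Protein folding was listed as a process for 9 members, out of 37 models in all.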
